A study of Homo sapiens with 6 samples.

Results

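The 8 genes described here are BSCL2, which encodes seipin, together with PLIN2, PLIN3, DGAT1, PNPLA2, ABHD5, LPIN1 and LPIN2. They were chosen by gene name among 31768 gene identifiers, with results of this same contrast already known, so their changes are given as a description without p-values for single genes. HMC3 cells, an immortalized human microglial cell line, were irradiated with a single X-ray dose of 15 Gy or left at 0 Gy as control, and RNA was taken after 24 h. Each group had 3 cultures that the study describes as independent, which gave 6 libraries of full-length cDNA read on Oxford Nanopore flow cells. No other treatment or genotype entered the comparison, and all 6 cultures were of the same line. The values are counts per transcript and library, with 84 transcript rows for these genes, of which 56 passed the filter on low counts. All 8 genes were among the 11118 genes tested.

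Lipid droplets are stores of neutral lipid that bud from the endoplasmic reticulum under a coat of perilipins. Triglyceride for the droplet core is made by phosphatidate phosphatases (lipins) and diacylglycerol acyltransferases, seipin organizes the site where a droplet forms, and adipose triglyceride lipase (PNPLA2) with its co-activator ABHD5 starts its breakdown. Microglia are known to fill with lipid droplets in ageing and inflammation. BSCL2 is named after congenital generalized lipodystrophy, the disease caused by loss of seipin.

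Irradiated libraries held 6292049 to 6909420 counts and control libraries 4870897 to 9082409. Expression is given as CPM, counts scaled to library size with TMM factors, and fold changes are log2 values of irradiated over control cells from edgeR. Over all genes the median log2 fold change was 0.08 with TMM factors and 0.53 with library totals alone, so directions are given relative to the TMM scale. CDKN1A, the p53 target that encodes p21, averaged 625.5 ± 9.61 CPM in irradiated cells and 183.4 ± 16.4 CPM in control cells (SD, n = 3 each; log2 fold change 1.77, edgeR adjusted p = 6.3e-07). Control 3 lay nearer to the irradiated libraries (r = 0.963 to 0.971 across genes) than controls 1 and 2 did (0.937 to 0.952). Of 15 microglial markers, 7 had counts, among them CD68 and TREM2, whereas CX3CR1, P2RY12, TMEM119, ITGAM, SALL1, TYROBP, C1QA and C1QB were at 0 in every library. The summed microglial marker level was 115 to 131 CPM in irradiated libraries and 81.7 to 107 CPM in control libraries. The summed level of 11 fibroblast and pericyte markers, 9 of them with counts, was 291 to 347 CPM in irradiated libraries and 340 to 363 CPM in control libraries. Adipocyte markers summed to 3.96 to 6.58 CPM in irradiated libraries and 1.98 to 3.76 CPM in control libraries, with LEP and CIDEC at 0. The part of these marker levels in the results below was not tested.

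On the TMM scale, mean RNA of seipin and of both perilipins was lower in irradiated than in control cells, and that of PNPLA2 higher. With library totals alone, the log2 fold changes of BSCL2, PLIN3 and PLIN2 were 0.055, 0.149 and −0.015, and PNPLA2 stayed higher at 1.27. The groups did not overlap for 4 of the 8 genes. PNPLA2 was higher in all irradiated cultures, as were 21.5% of all genes tested, and BSCL2, PLIN2 and PLIN3 were lower in all of them, as were 21.3% of all genes tested. In edgeR's quasi-likelihood test 0 of the 8 genes reached an adjusted p under 0.05, against backgrounds of 11.6% of genes higher and 14.1% lower. Without adjustment, 6 of them had a p under 0.05 (2 higher, 4 lower), as did 19.6% of all genes tested on the higher and 19.3% on the lower side. DESeq2 gave 1 with an adjusted p under 0.05 and 4 without adjustment, beside 24.6% and 35.5% of all genes in either direction. None could therefore pass the stricter rule, which also asks that the log2 fold change exceed 1 in size and which 5.70% of all genes passed in either direction. The median log2 fold change of the 8 genes was −0.12, beside 0.08 over all genes. In RNA from whole cultures, fewer cells expressing a gene and less RNA per cell cannot be told apart.

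**Figure D1:**
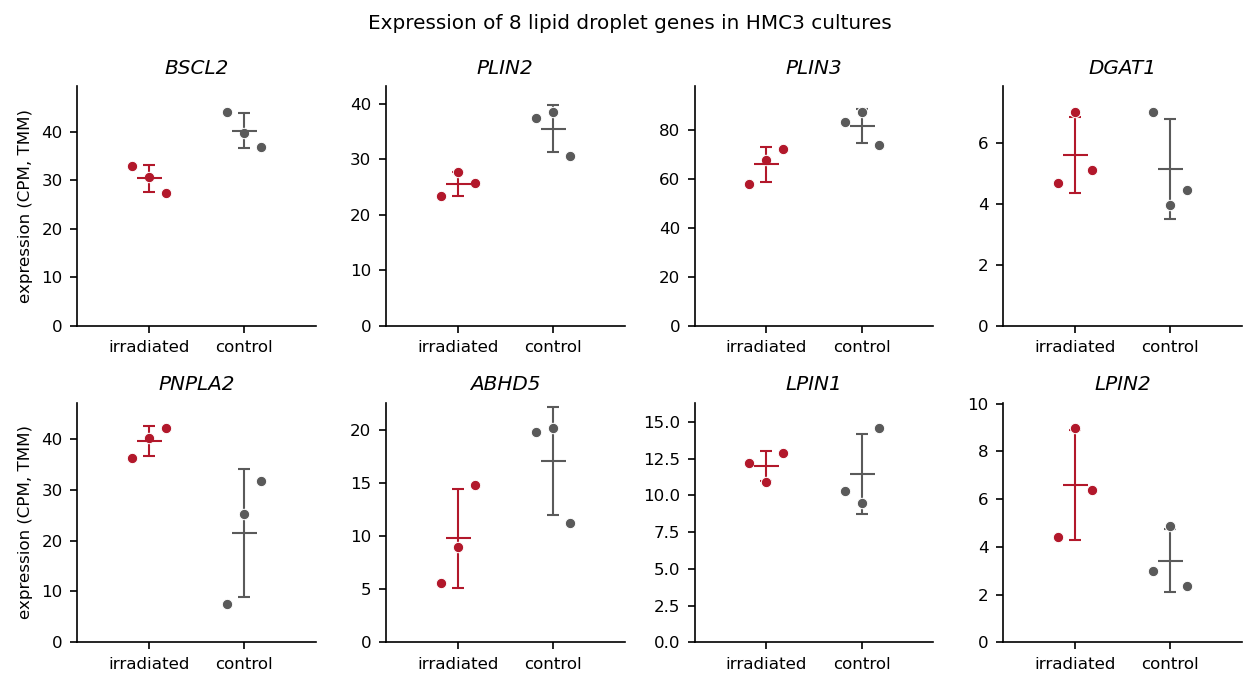
Expression (CPM with TMM factors, axes from 0) of each of the 8 genes in irradiated (red, left) and control (grey, right) cultures, with points for the 3 cultures and bars for mean ± SD. Irradiated cultures lie below all controls for BSCL2, PLIN2 and PLIN3 and above all controls for PNPLA2, where control 1 is far under the other controls.

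**Figure D2:**
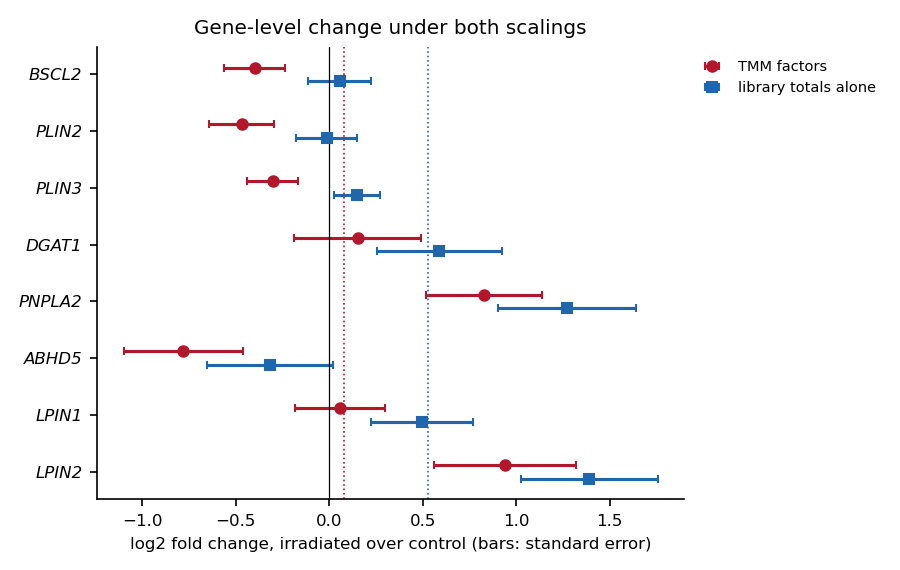
Log2 fold change of irradiated over control cells with its standard error, from counts scaled with TMM factors (red circles) and with library totals alone (blue squares); dotted lines mark the median of all genes under each scaling (0.08 and 0.53). BSCL2 and PLIN3 are below 0 on the first scale and above 0 on the second, PLIN2 is at −0.47 on the first and at −0.015 on the second, and PNPLA2, LPIN2 and ABHD5 keep their sign.

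BSCL2 lies on chromosome 11 from 62690275 to 62709845 on the minus strand (GRCh38, GENCODE release 29) and is read from several alternative first exons. RefSeq lists 3 start sites for it (GRCh38.p14), and the bases just upstream of each, outside annotated exons, are shown because the isoform that changed most in use starts at 62706344, close to the most downstream of them. Capitals mark CCGCCC, the reverse complement of GGGCGG (the GC box that Sp1-family factors bind).
BSCL2 start 62706315, chr11:62706345-62706565, minus strand: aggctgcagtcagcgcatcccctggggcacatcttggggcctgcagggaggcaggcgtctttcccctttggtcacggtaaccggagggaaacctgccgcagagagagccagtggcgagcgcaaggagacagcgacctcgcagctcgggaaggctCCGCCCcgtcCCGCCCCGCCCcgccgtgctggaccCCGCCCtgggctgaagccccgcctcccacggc
BSCL2 start 62707424, chr11:62707519-62707657, minus strand: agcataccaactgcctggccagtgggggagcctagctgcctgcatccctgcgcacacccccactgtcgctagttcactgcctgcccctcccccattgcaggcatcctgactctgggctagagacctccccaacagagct
BSCL2 start 62709537, chr11:62709538-62709567, minus strand: gtataaaatcggctccagtcgcggtaactg

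The GC box was searched after these windows had been seen, as GGGCGG on both strands of the 250 bases before each start. It occurred 5 times at the start at 62706315 (71.6% GC), 4 of them in the bases printed, 0 times at 62707424 (64.4% GC) and once at 62709537 (59.6% GC). Of 35116 RefSeq windows of the same length, 42.64% held it at least once. CACGTG, the E-box, was in none of the BSCL2 windows and in 6.34% of all windows. The same search found CACGTG at PLIN2 and at 1 of the LPIN2 starts. Of the 8 genes, 7 matched an entry, 14 in all, and DGAT1 was not analysed here. The DR1 element, a direct repeat bound by nuclear receptors such as the PPARs, was in none of the 14 and in 0.02% of all windows. CCAAT was found at PLIN3 alone among the 14, against 32.01% of all windows.

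Seipin RNA was 33.1, 30.7 and 27.5 CPM in irradiated cultures 1, 2 and 3, against 44.2, 39.8 and 36.8 CPM in control cultures 1, 2 and 3. Every irradiated culture lay below every control. The mean was 30.4 ± 2.79 CPM in irradiated cells and 40.3 ± 3.69 CPM in control cells (SD, n = 3 each). Its log2 fold change was −0.40 with a standard error of 0.16, which turns to 0.055 when library totals alone set the scale and is −0.19 when a trend with transcript length is removed. Reads of the read-through gene HNRNPUL2-BSCL2, which runs through the same exons on the same strand, numbered 28, 23 and 21 in irradiated cultures and 19, 33 and 30 in controls, and counting could divide reads between it and BSCL2. GNG3 overlaps BSCL2 on the opposite strand, and the sources used here do not give how the counting treated strand. Without strand, reads that lie wholly within such an overlap may not be told apart. The same holds for the antisense partners of PLIN3, PNPLA2, LPIN1 and LPIN2, for ABHD5 with ANO10 and for DGAT1 with HSF1. The genes whose centred log2 CPM over the 6 libraries lay nearest to that of BSCL2, out of 6170 genes that averaged 10 CPM or more, were HACD3, METTL26 and RNF141, each at a root mean square difference of 0.053.

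The isoform make-up of BSCL2 differed more than its total. Isoform fraction is the share of a gene's counts assigned to a transcript, and dIF is the mean fraction in irradiated cells minus that in control cells. ENST00000407022, a protein-coding transcript of 1516 bases in 11 exons that starts at 62706344, had 12, 16 and 10 counts in irradiated cultures 1, 2 and 3, against 39, 55 and 46 in control cultures 1, 2 and 3. It was the most abundant seipin transcript in every control and lay below several others in every irradiated culture. Its share was 4.86, 7.80 and 4.65% of BSCL2 counts in irradiated cultures, against 22.2, 21.2 and 15.4% in controls. The mean share was 5.77% ± 1.76 in irradiated cells and 19.6% ± 3.63 in control cells (SD, n = 3 each), a dIF of −0.138, and its abundance had a log2 fold change of −2.19 with a standard error of 0.29. It was the single isoform of 56 in these genes that passed the rule for a switch (edgeR's diffSpliceDGE, adjusted p under 0.05 and absolute dIF of at least 0.1), which 0.410% of 73603 isoforms passed. With each library left out in turn, dIF stayed between −0.125 and −0.159 and the rule was still met. Division of counts by transcript length gave −0.217, over the annotated transcripts alone.

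**Figure D3:**
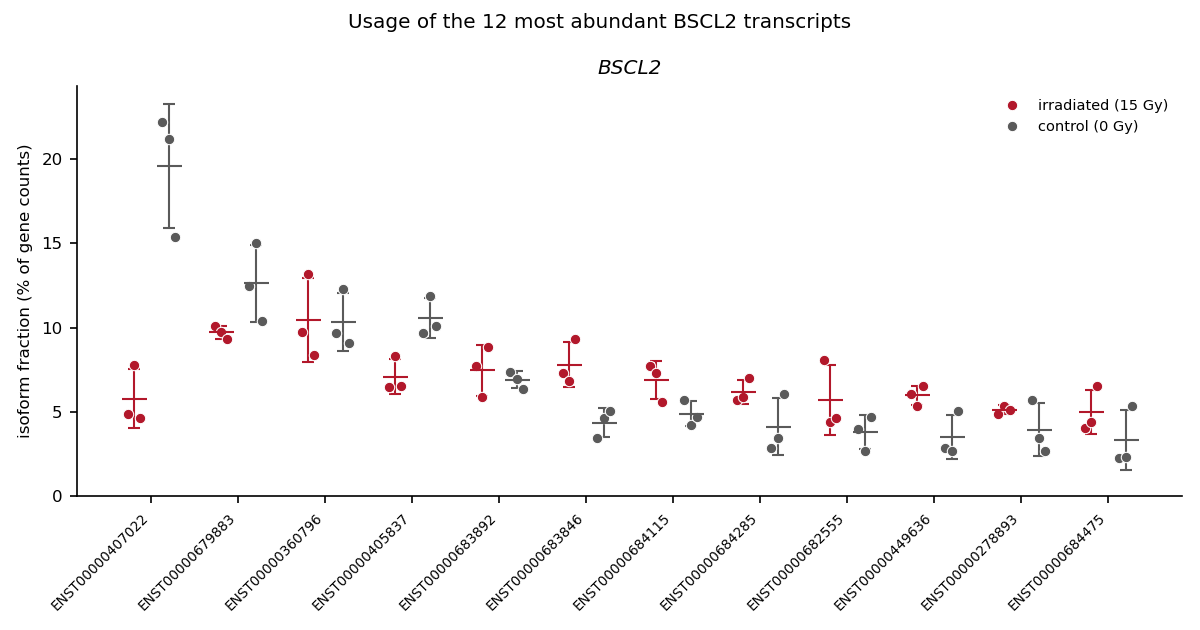
Isoform fraction (percent of BSCL2 counts per culture) of the 12 most abundant BSCL2 transcripts, irradiated in red on the left of each pair and control in grey, with points for the 3 cultures and bars for mean ± SD. ENST00000407022 stands at 4.65 to 7.80% in irradiated cultures and 15.4 to 22.2% in controls, while the other transcripts differ by a few points.

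The share was not passed to a single other isoform. Of 20 kept BSCL2 transcripts, 15 had a positive and 5 a negative dIF. ENST00000683846 had the most positive dIF, without being called as switched. It stood at 7.81% ± 1.32 in irradiated cells and 4.35% ± 0.843 in control cells (dIF 0.035) and is named after its values were seen. ENST00000679883 had 9.73% ± 0.41 in irradiated cells and 12.6% ± 2.30 in control cells. ENST00000360796, which starts at 62707398, had 10.4% ± 2.48 in irradiated cells and 10.3% ± 1.73 in control cells. Of the 20, 12 are not in GENCODE release 29, so their structure is not described here.

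The annotated BSCL2 transcripts begin translation at either of a pair of start codons, whose first bases are at 62705512 and 62707195. ENST00000407022 begins at 62705512 and codes for 398 residues, whereas ENST00000360796 and ENST00000405837 begin at 62707195 and code for 462 and 464. The 4 kept transcripts that begin at 62705512 held 32, 31 and 25 counts in irradiated cultures and 60, 78 and 63 in controls. That was 13.0, 15.1 and 11.6% of BSCL2 counts in irradiated cultures, against 34.1, 30.0 and 21.1% in controls, with no overlap. Of the counts at 62705512, ENST00000407022 held 12, 16 and 10 in irradiated cultures and 39, 55 and 46 in controls. It is the isoform already called as switched, so the separation of this group largely repeats that result. A shift in start codon beyond it was not tested. The 2 kept transcripts that begin at 62707195 held 16.2, 21.5 and 14.9% in irradiated cultures, against 19.3, 24.2 and 19.1% in controls, and these ranges overlapped. The transcripts were grouped in this way after their values had been seen, and the rest of the counts fell on transcripts without an annotated start codon in the release used.

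Within the short-seipin group the 4 transcripts differed. ENST00000403550, which also codes for 398 residues, is 1693 bases long and starts at 62706234, had 7, 2 and 3 counts in irradiated cultures and 8, 11 and 7 in controls (log2 fold change −1.40, standard error 0.53). ENST00000278893, which codes for 287 residues, starts at 62706315 and is 1364 bases long, had 12, 11 and 11 counts in irradiated cultures and 10, 9 and 8 in controls. It starts close to ENST00000407022, and its CPM overlapped between the groups. ENST00000421906, which codes for 398 residues and shares the start at 62706344, had 1, 2 and 1 counts in irradiated cultures and 3, 3 and 2 in controls. Outside this group, the long form ENST00000405837 had 16, 17 and 14 counts in irradiated cultures and 17, 31 and 30 in controls (log2 fold change −1.02, standard error 0.31). Among the annotated BSCL2 transcripts in the deposited counts, it has the most upstream start. No exonic base and no splice junction of ENST00000407022 is absent from all the other 12 annotated isoforms in the table, so its count rests on how the quantification divided reads among combinations of shared exons.

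PLIN2 and PLIN3 coat lipid droplets, PLIN2 as a protein found bound to droplets and PLIN3 as one that moves between cytosol and droplet. PLIN2 lies on chromosome 9 from 19108375 to 19149290 on the minus strand. It had 23.4, 27.7 and 25.7 CPM in irradiated cultures, against 37.4, 38.6 and 30.7 CPM in controls. All irradiated values lay below all control values, with the smallest gap to control 3, and the means were 25.6 ± 2.13 CPM in irradiated cells and 35.5 ± 4.27 CPM in control cells (SD, n = 3 each; log2 fold change −0.47, standard error 0.17, and −0.015 with library totals alone). Its RNA was nearly all 1 isoform, ENST00000276914, with 90.1% ± 1.92 of counts in irradiated cells and 89.4% ± 1.28 in control cells. ENST00000380464 and ENST00000475923 came next, at 3.15 and 2.32% in irradiated cells and 2.86 and 2.72% in control cells.

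PLIN3, on chromosome 19 from 4838341 to 4867768 on the minus strand, had the highest level per length of the 8 genes in both groups. It had 58.1, 67.8 and 72.1 CPM in irradiated cultures, against 83.3, 87.5 and 73.9 CPM in controls. The groups were separated by the narrow gap between irradiated 3 and control 3. Means were 65.97 ± 7.18 CPM in irradiated cells and 81.6 ± 6.97 CPM in control cells (SD, n = 3 each; log2 fold change −0.30, standard error 0.14, and 0.15 with library totals alone).

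The longest PLIN3 isoform had a smaller share in irradiated cells and a pair of others a larger one. ENST00000221957, which codes for 434 residues, had 67.1, 70.0 and 68.6% of PLIN3 counts in irradiated cultures, against 82.2, 83.9 and 78.1% in controls. The groups were well apart, and the dIF was −0.129, a size past the limit of 0.1, but diffSpliceDGE did not call it a switch and limma's diffSplice did. ENST00000592528, a form with another exon junction that codes for 422 residues, had 15.6% ± 1.03 in irradiated cells and 9.07% ± 1.70 in control cells (dIF 0.066). ENST00000589163, whose annotated first exon is internal to the gene, at 4859636, had 14.4% ± 1.11 in irradiated cells and 6.65% ± 2.40 in control cells (dIF 0.077). It shares 97.9% of its bases with ENST00000592528, and their counts differed by at most 13 in any library. Each has 0 exonic bases and 1 junction absent from the other annotated isoforms, so their gains may not be separate. In counts, ENST00000589163 had 68, 62 and 78 in irradiated cultures and 16, 33 and 56 in controls, with control 3 nearest to the irradiated cultures. ENST00000585479 had 1, 4 and 12 counts in irradiated cultures and 13, 12 and 8 in controls (log2 fold change −1.27, standard error 0.46), and its groups overlapped.

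**Figure D4:**
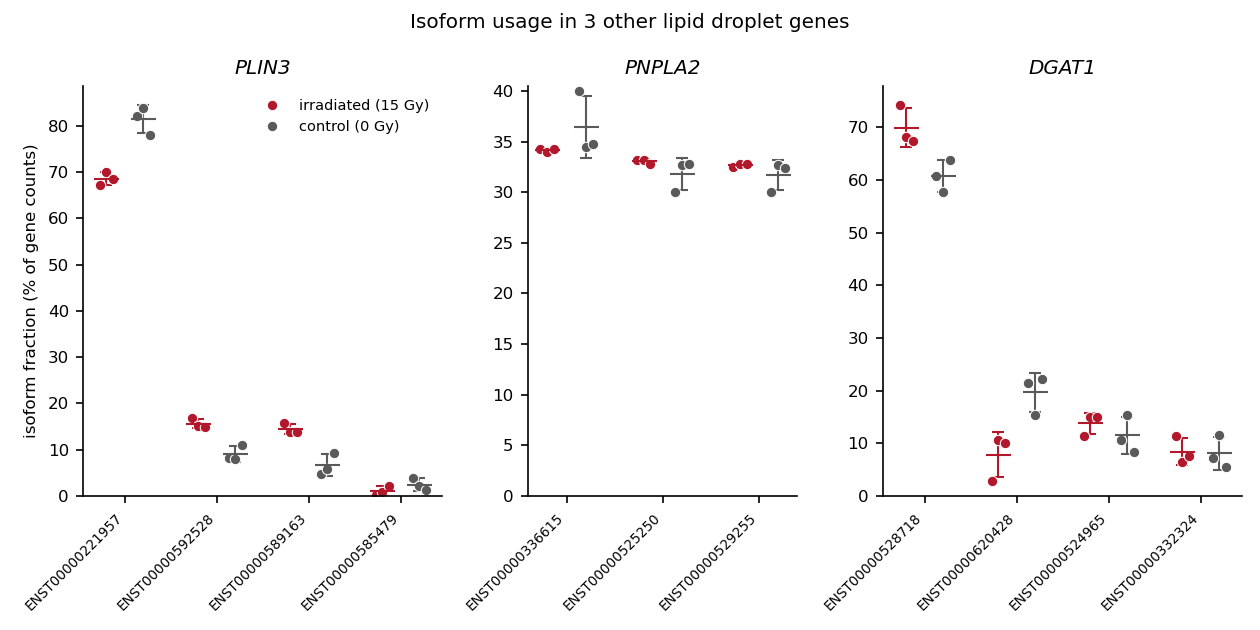
Isoform fraction (percent of the gene's counts per culture) of up to 4 transcripts of PLIN3, PNPLA2 and DGAT1, irradiated in red on the left of each pair and control in grey, with points for the 3 cultures and bars for mean ± SD. In PLIN3, ENST00000221957 stands at 67.1 to 70.0% in irradiated cultures and 78.1 to 83.9% in controls, while the 3 PNPLA2 transcripts each hold about the same share in every culture except control 1.

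Lipins remove the phosphate from phosphatidate to give diacylglycerol, which DGAT1 turns into triglyceride at the endoplasmic reticulum. LPIN1, on chromosome 2 from 11677595 to 11827409, had 12.2, 10.9 and 12.9 CPM in irradiated cultures and 10.3, 9.49 and 14.6 CPM in controls. The groups overlapped, and its log2 fold change of 0.06 (standard error 0.24) changed sign when control 1 or control 2 was left out or a length trend was removed. LPIN2, on chromosome 18 from 2916994 to 3013315, had 4.42, 8.97 and 6.39 CPM in irradiated cultures and 3.01, 4.90 and 2.35 CPM in controls. Only irradiated 1 fell inside the control range, and the log2 fold change was 0.94 with a standard error of 0.38. DGAT1, on chromosome 8 from 144314584 to 144326910, had 4.68, 7.03 and 5.11 CPM in irradiated cultures and 7.02, 3.98 and 4.45 CPM in controls, a log2 fold change of 0.15 with a standard error of 0.34. LPIN2 and DGAT1 averaged under 10 CPM over the 6 libraries, so few reads stood behind their values.

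Isoforms of these 3 genes carried few counts. In DGAT1, the 444-base transcript ENST00000620428 had 1, 5 and 4 counts in irradiated cultures and 6, 4 and 8 in controls (7.83% ± 4.32 of counts in irradiated cells and 19.7% ± 3.74 in control cells, dIF −0.118), and it was not called. It has 0 exonic bases and 1 junction absent from the other annotated DGAT1 isoforms. A separate gene, AC233992.1, is annotated at the same coordinates on the same strand, so these counts may not be separable from it. ENST00000528718 had 70.0% ± 3.76 in irradiated cells and 60.8% ± 3.10 in control cells, and ENST00000524965 13.8% ± 2.03 in irradiated cells and 11.5% ± 3.59 in control cells. In LPIN1, ENST00000396097 and ENST00000425416 had identical counts in every library, and ENST00000256720 and ENST00000674199 lay within 4 counts of them. The 3 kept LPIN2 transcripts, among them ENST00000261596, differed by at most 1 count. Such sets are therefore 1 measurement repeated, not independent isoforms.

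PNPLA2 takes the first fatty acid from triglyceride, and ABHD5 (CGI-58) activates it. PNPLA2, on chromosome 11 from 818902 to 825573, had 36.3, 40.1 and 42.1 CPM in irradiated cultures, against 7.53, 25.2 and 31.6 CPM in controls. The irradiated cultures lay close together above all controls, and control 1 was far below the other 2 controls. Means were 39.5 ± 2.94 CPM in irradiated cells and 21.5 ± 12.5 CPM in control cells (SD, n = 3 each; log2 fold change 0.83, standard error 0.31). Leaving out control 1 gave a log2 fold change of 0.46, and leaving out control 3 gave 1.17. Its 3 kept transcripts, ENST00000336615 and the retained-intron forms ENST00000525250 and ENST00000529255, differed by at most 6 counts in any library and held 34.2, 33.1 and 32.7% in irradiated cells and 36.4, 31.8 and 31.7% in control cells. Their counts moved together as in the lipin sets, and ENST00000529255 has 0 exonic bases and 0 junctions absent from the other annotated isoforms. These shares therefore do not show how much PNPLA2 RNA retained an intron.

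ABHD5, on chromosome 3 from 43690108 to 43734371, pointed the other way. It had 5.62, 8.97 and 14.8 CPM in irradiated cultures, against 19.8, 20.2 and 11.3 CPM in controls. The groups overlapped because irradiated 3 lay above control 3, and the log2 fold change was −0.78 with a standard error of 0.32. Without irradiated 3 it was −1.22 and without irradiated 1 it was −0.50. Its main protein-coding transcript, ENST00000644371, had 17, 19 and 34 counts in irradiated cultures and 31, 56 and 36 in controls (log2 fold change −1.14, standard error 0.26). ENST00000646378, annotated as a target of nonsense-mediated decay, had 5, 10 and 17 counts in irradiated cultures and 13, 24 and 17 in controls (log2 fold change −1.06, standard error 0.36). ENST00000643477, of the same class, had 12.9% ± 1.58 of ABHD5 counts in irradiated cells and 10.1% ± 0.95 in control cells.

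Across the 8 genes, 6 of the 56 kept transcripts were called lower and 0 higher at an edgeR adjusted p under 0.05 and a log2 fold change over 1 in size. These were the BSCL2, PLIN3 and ABHD5 transcripts whose fold changes are given above, 3 of BSCL2, 1 of PLIN3 and 2 of ABHD5. Over all 74843 transcripts, 4.33% were called lower and 3.36% higher. With library totals alone 9 member transcripts were called, and of these 6 only ENST00000407022 still passed, at a log2 fold change of −1.69. Without control 2 the number called was 1.

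Expressed per length, as CPM per kb of annotated transcript, the order of the genes differed between the groups. The libraries were of full-length cDNA, where counts need not grow with transcript length. Division by length lowers genes with long transcripts, so this order is not a ranking of RNA abundance. Irradiated cells had PLIN3 at 30.6 ± 3.4, PNPLA2 at 20.3 ± 1.5, PLIN2 at 15.1 ± 1.1, BSCL2 at 10.6 ± 1.7, ABHD5 at 3.64 ± 1.9, DGAT1 at 2.99 ± 1.0, LPIN1 at 1.64 ± 0.15 and LPIN2 at 0.355 ± 0.12 CPM per kb. Control cells had PLIN3 at 36.9 ± 3.1, PLIN2 at 21.2 ± 2.2, BSCL2 at 16.0 ± 1.3, PNPLA2 at 11.0 ± 6.4, ABHD5 at 6.15 ± 1.9, DGAT1 at 3.88 ± 1.4, LPIN1 at 1.55 ± 0.37 and LPIN2 at 0.19 ± 0.07 CPM per kb (SD, n = 3 each). In both groups PLIN3 led in every culture. Among neighbours in these orders, ABHD5 and DGAT1 overlapped in irradiated cells. In control cells BSCL2 and PNPLA2, PNPLA2 and ABHD5, and ABHD5 and DGAT1 overlapped. Transcripts of known length held 46.8% of BSCL2, 75.3% of LPIN1 and 34.0% of LPIN2 counts and all counts of the others, so levels of those 3 genes are understated. These shares pool both groups. For BSCL2 the share was smaller in every irradiated culture than in any control, so its level was understated more in irradiated cells. Its level per length, and its place in the order, are therefore not comparable between the groups.

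The other genes of lipid droplet metabolism were taken from 5 lists of 92 genes, of which 61 were tested. These lists were chosen with earlier results of these data known, so their counts and p-values are descriptive. At an edgeR adjusted p under 0.05, adjusted over all 11118 genes, 13 were higher in irradiated cells, 5 were lower and 43 did not pass, beside 11.6% of all genes higher and 14.1% lower. With library totals alone 29 were higher and 2 lower, beside 32.8% of all genes higher and 3.2% lower. Triglyceride synthesis had 5 higher and 0 lower of 11 tested, with a median log2 fold change of 0.32. AGPAT2, which acylates lysophosphatidate on the way to phosphatidate, averaged 15.5 ± 2.88 CPM in irradiated cells and 7.77 ± 1.46 CPM in control cells (log2 fold change 0.99, edgeR adjusted p = 0.00943). AGPAT3 (0.68, adjusted p = 0.0109) and AGPAT1 (0.47, adjusted p = 0.0203), enzymes of the same family, rose as well. LPIN3, the third lipin, rose by 1.37 on the log2 scale (edgeR adjusted p = 0.0218), with 5.19 ± 1.18 CPM in irradiated cells and 1.96 ± 0.561 CPM in control cells. ACSL1, which activates long-chain fatty acids, was the fifth (0.98, adjusted p = 0.0252) and is named after its values were seen. Leaving out 1 library ended the call of AGPAT1 without irradiated 1, control 1 or control 2 (0.37 to 0.46), of AGPAT2 without irradiated 3 (0.86) and of LPIN3 without irradiated 1, irradiated 2 or control 2 (1.21 to 1.29). ACSL1 passed only with all 6 libraries or without irradiated 2 or control 3. DGAT2, the other diacylglycerol acyltransferase, had 9.31 ± 2.12 CPM in irradiated cells and 7.51 ± 1.89 CPM in control cells and did not pass.

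Among genes of droplet coat and formation, 1 was higher and 2 were lower of 19 tested, with a median log2 fold change of 0.04. AUP1, a droplet and endoplasmic reticulum protein of ubiquitin-dependent degradation, fell by 0.70 on the log2 scale (edgeR adjusted p = 0.00152), with 95.4 ± 9.47 CPM in irradiated cells and 155.0 ± 13.9 CPM in control cells, and RAB18, a droplet GTPase, fell by 0.49 (adjusted p = 0.0306). On library totals alone their log2 fold changes were −0.25 and −0.02 and neither passed. TMEM41B, a lipid scramblase of the endoplasmic reticulum, rose by 0.65 (adjusted p = 0.0237). RAB18 did not pass without irradiated 2, irradiated 3, control 1 or control 2 (−0.45 to −0.38), nor TMEM41B without irradiated 1, irradiated 3, control 1 or control 2 (0.53 to 0.65). HILPDA, an inhibitor of PNPLA2, had 13.7 ± 1.44 CPM in irradiated cells and 18.8 ± 1.25 CPM in control cells and did not pass (adjusted p = 0.107, edgeR). LDAF1, the partner of seipin in droplet formation, had 5.28 ± 1.86 CPM in irradiated cells and 5.62 ± 1.13 CPM in control cells and did not pass.

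Of 11 lipolysis and lipophagy genes tested, 2 were higher and 1 was lower. FABP5, a fatty acid binding protein, had 15.0, 14.5 and 19.4 CPM in irradiated cultures, against 32.6, 35.7 and 31.6 CPM in controls. Its groups were far apart (log2 fold change −1.03, edgeR adjusted p = 0.00156). PNPLA6, a lysophospholipase of the same family as PNPLA2, rose by 1.06 (adjusted p = 0.0174, edgeR), and SPG21 rose by 0.50 (adjusted p = 0.0292), whereas ABHD12, a lysophospholipid lipase, did not pass (0.54, adjusted p = 0.0603). Without control 2, PNPLA6 did not pass (0.74), and SPG21 passed only without irradiated 2 or control 3 (other values 0.40 to 0.51). ABHD12 passed without irradiated 2 (0.71) or control 3 (0.65). Of 3 sterol ester genes, LCAT, which esterifies cholesterol, had 4.34 ± 1.15 CPM in irradiated cells and 0.913 ± 0.589 CPM in control cells (log2 fold change 2.12, edgeR adjusted p = 0.00857). SOAT1, which makes cholesterol esters for droplets, had 43.2 ± 5.97 CPM in irradiated cells and 31.6 ± 3.77 CPM in control cells (log2 fold change 0.45, edgeR adjusted p = 0.0633), and NCEH1, which splits them, had a log2 fold change of 0.25, and neither passed. LCAT averaged 2.63 CPM over the 6 libraries, so few reads stood behind its change. LCAT did not pass without irradiated 1 (1.92), and SOAT1 and NCEH1 passed without control 3 (0.53 and 0.43).

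Of 17 genes of fatty acid oxidation tested, 4 were higher and 2 were lower. CPT1C, a brain-type member of the carnitine palmitoyltransferase family, averaged 30.99 ± 4.97 CPM in irradiated cells and 12.3 ± 4.50 CPM in control cells (log2 fold change 1.32, edgeR adjusted p = 0.00178). The family did not move as a whole. CPT1A had 6.91 ± 0.443 CPM in irradiated cells and 10.6 ± 2.12 CPM in control cells (log2 fold change −0.61), and CPT2 had a log2 fold change of 0.68. Neither passed, and both are named after their values were seen. ACADVL, which starts mitochondrial oxidation of very long chains, and ACAA1, a peroxisomal thiolase, rose by 0.60 and 0.70 and are named after their values were seen. ETFA and ETFB, the subunits of the electron transfer flavoprotein, fell by 0.81 (edgeR adjusted p = 0.000904) and 0.58 (adjusted p = 0.00743). ETFA had 191.7 ± 18.0 CPM in irradiated cells and 336.2 ± 53.2 CPM in control cells. ETFB did not pass with library totals alone (−0.12). ACADVL did not pass without irradiated 3 or control 2 (0.56 and 0.45), and ACAA1 did not pass without irradiated 1, irradiated 3 or control 2 (0.47 to 0.66).

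**Figure D5:**
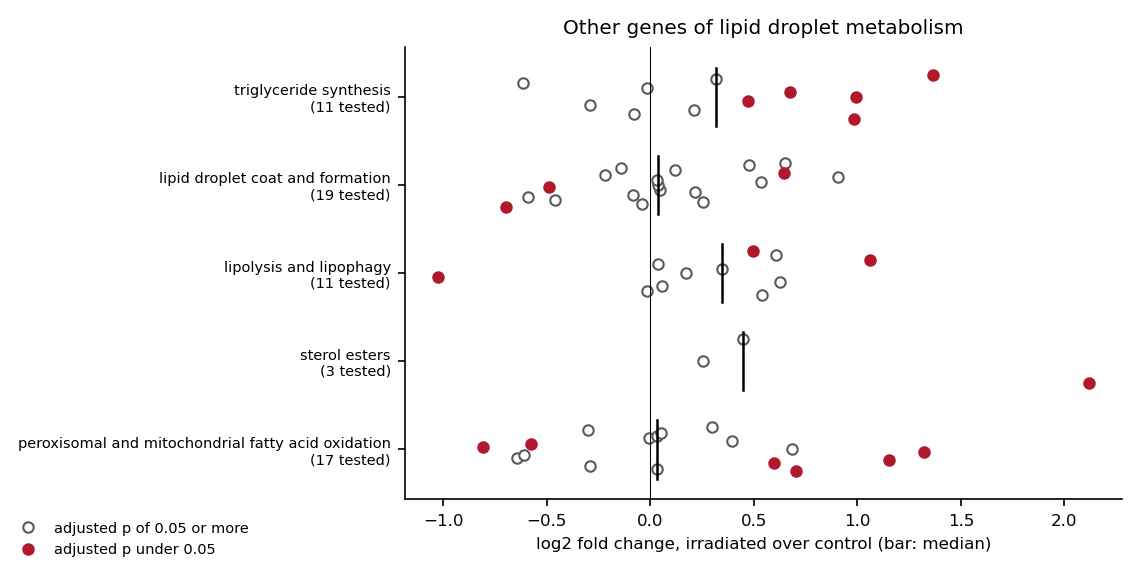
Log2 fold change of irradiated over control cells for the 61 tested genes of 5 lists on lipid droplet metabolism, 1 point per gene, filled red where the edgeR adjusted p over all genes is under 0.05 and open otherwise, with a bar at the median of each list. Triglyceride synthesis has 5 filled points, all above 0, while the list on fatty acid oxidation has 4 above 0 and 2 below.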

How the data were processed

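RNA of 6 HMC3 cultures was read by Oxford Nanopore cDNA sequencing. Reads were aligned by the authors with minimap2 (GRCh38). They assembled transcripts with StringTie2, annotated them with GffCompare and quantified them with Salmon. They deposited whole-number counts per transcript and library. The sources used here do not give tool versions, the annotation release, strand handling or any collapsing of unique molecular identifiers, so counts may hold PCR copies. Columns left out of the deposited counts numbered 0. Controls and irradiated cultures were grouped by their labels.

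Following the study, genes with 10 counts in at least 3 libraries, transcripts with 3 counts in at least 1 library and genes with at least 2 kept transcripts were used, which kept 95.63 to 96.45% of counts (11118 genes, 74843 transcripts). Kept counts were summed per gene and tested with edgeR 4.0.16 (TMM, robust quasi-likelihood, Benjamini-Hochberg) in R 4.3.3. Usage was tested with diffSpliceDGE. Standard errors were taken as the size of the log2 fold change over the root of the F statistic. Gene and transcript positions, lengths, classes and coding residues came from GENCODE release 29, which holds 70.2% of kept transcripts and 86.0% of their counts, and upstream sequences from RefSeq (GRCh38.p14). The scripts were tested on simulated data.

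The members and all lists were chosen with earlier results of these data known, and the markers likewise. Named were all members, the 3 most abundant kept transcripts of each member plus any called, in each list every gene with an absolute log2 fold change over 1 and an adjusted p under 0.05 plus up to 4 genes with the smallest adjusted p, and the 3 genes nearest to BSCL2. Other genes or transcripts named were chosen after their values were seen, as the text says. A result that this rule covers is not reported here. Alternatives were RLE factors, library totals, other filters, DESeq2 1.42.0, limma 3.58.1, a length-trend offset, length-divided fractions, a replicate block and the omission of each library in turn. Replicates are separate cultures, and their number limits the precision. Plots were made with matplotlib 3.10.9 in Python 3.11.15.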

Additional observations from a re-analysis of the deposited data

How the results depend on the processing

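Of 809 recomputed values of 68 results, 693 kept their direction and their side of the threshold or, for a count or a dIF, stayed close to the main one. A dIF was judged by its size alone, without its usage test. Because limma's diffSplice and the replicate block change only that test, dIF was the same under them by construction. The 693 therefore include values that could not have differed. Of the 8 genes, 0 passed an adjusted p under 0.05 in edgeR. With RLE factors 1 did (PLIN2), with library totals alone 2 (PNPLA2 and LPIN2, both also with a log2 fold change over 1), without a filter on low counts 2 (PNPLA2 and ABHD5) and with DESeq2 1 (PLIN2). Leaving out each library in turn gave 0 to 5 genes. The 5 came without control 3 (BSCL2, PLIN2, PLIN3, PNPLA2, ABHD5), and 1 each came without irradiated 3 (ABHD5) and without control 2 (LPIN2). With the added limit on fold change these counts were 0 to 2. The number of list genes that passed, 18, was 31 with library totals alone and 9 to 26 with a library left out (9 without control 2, 11 without irradiated 1 or irradiated 3). Member transcripts called, 6, fell to 2 with DESeq2 and ranged over 1 to 9 with a library left out (1 without control 2, 3 without irradiated 1 or control 1, 9 without control 3). Member isoforms switched, 1, became 2 with limma's diffSplice and stayed 1 with any library left out. Log2 fold changes that turned sign were BSCL2 (0.055) and PLIN3 (0.149) with library totals alone, DGAT1 without irradiated 2 (−0.041, the low end of −0.041 to 0.394 over libraries left out), LPIN1 with the length offset (−0.232) and without control 1 (−0.014) or control 2 (−0.061, in a range of −0.061 to 0.263), and NCEH1 with the length offset (−0.010). The length offset took BSCL2 to −0.19 and ended the calls of AGPAT3 (0.39), LPIN3 (1.11), ACSL1 (0.82), TMEM41B (0.50) and ETFB (−0.32). With library totals alone SOAT1 (0.89), NCEH1 (0.69) and ABHD12 (0.998) passed. The cause of each change was not tested, except that a library left out also leaves fewer samples.

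Deviations from the group means of same-numbered cultures correlated at −0.005, 0.121 and 0.033, and those of differently numbered cultures at −0.144 to 0.119. With 3 cultures per group such values cannot decide whether replicate numbers pair the samples. The main fit did not pair them. With the replicate block, 1 of the 8 genes passed an adjusted p under 0.05 (PNPLA2, log2 fold change 0.98), the genes called over the whole table were 689 against 634, and the other counts over these genes and lists stayed within 1.5 times. DGAT1 and LPIN2, at means under 10 CPM, and most single isoforms, at under 30 counts per library, are limited by depth. Of the list genes named, LCAT (2.63 CPM), LPIN3 (3.58 CPM), LDAF1, CPT2, DGAT2 and CPT1A also averaged under 10 CPM.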
